A study of Mus musculus with 12 samples.

Results

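Chemoattractant receptors are the surface proteins with which a macrophage senses where to go, and 9 of them were followed by name through all libraries: Fpr1, Fpr2, C5ar1, C3ar1, Ptafr, Ccr1, Ccr2, Ccrl2 and Cx3cr1. They are 9 of the 48795 genes listed in the deposited counts, and all 9 were among the 11228 genes that were abundant enough to test. Most of these receptors thread through the membrane several times and couple to inhibitory G proteins, whose activation drives cell migration, calcium release and, in phagocytes, oxidant production. Fpr1 and Fpr2 bind formylated peptides shed by bacteria and damaged mitochondria, C5ar1 and C3ar1 bind the complement fragments C5a and C3a, and Ptafr binds the lipid platelet-activating factor. Ccr1 and Ccr2 are receptors of inflammatory CC chemokines, Cx3cr1 is the receptor of the membrane-bound chemokine Cx3cl1, and Ccrl2 is an atypical receptor that presents the chemoattractant chemerin without signalling through G proteins.

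The cells were mouse bone marrow-derived macrophages (BMDMs), which are grown out of marrow precursors in culture, from animals aged 7 to 11 weeks. WT cells came from mice labelled C57BL/6, for which the study's methods name the substrain C57BL/6NJ, and Acod1-/- cells from the line C57BL/6NJ-Acod1em1(IMPC)J/J, which lacks the enzyme that makes the immune metabolite itaconate. Cells of each genotype received vehicle, urban particulate matter (PM, 20 µg/cm2 for 24 hours), or 4-octyl itaconate (OI, a cell-permeable itaconate ester, 0.25 mM from 2 hours before) followed by the same PM. Each of the 6 groups had 2 libraries, no group received OI without PM, and so the comparisons ask what PM does, what OI does to PM-treated cells, and whether either depends on Acod1. No label says that libraries of a group came from separate animals, so the p-values measure only the spread between these libraries, which may be technical.

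The libraries held 33616577 to 36817898 assigned reads each. Replicates differed by more than counting noise, with a chi-square per degree of freedom of 2.61 to 8.32 in 4 groups, 27.3 in WT PM and 58.5 in WT OI+PM. In those last WT groups the difference between replicates followed transcript length (Spearman's rho across genes of -0.60 and -0.61), and the part of this in the results was not tested beyond the fits described at the end. All 8 macrophage markers were above 1.5 CPM (counts scaled to library size) in every library. The T cell, dendritic cell, fibroblast and mast cell or basophil lists each summed to at most 2.34 CPM in any library, and the B cell list, almost wholly Ighm, is given beside the OI results.

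The targeted gene itself was not silent in the libraries labelled Acod1-/-. Acod1 stood at 1.84 and 2.49 normalized CPM in WT vehicle, 181 and 170 in WT PM, and 32.6 and 57.1 in WT OI+PM. The corresponding libraries labelled Acod1-/- held 1.26 and 1.22, 108 and 94.1, and 24.4 and 26.8. Such gene-level counts carry no exon positions and so neither show nor contradict a deletion within the gene, and "Acod1-/-" below means the label. In its own metabolite measurements the study detected itaconate after PM in WT BMDMs and not in Acod1-/- BMDMs. Nnt, of which the substrain C57BL/6J lacks several exons and C57BL/6NJ does not, averaged 37.5 normalized CPM in WT vehicle and 73.3 in Acod1-/- vehicle, and Wdfy1 averaged 16.0 and 71.8. The deletion and any other difference between these mice, the substrain included, therefore cannot be told apart in the genotype comparisons.

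Several receptor genes lie next to relatives. On mouse build GRCm38, Fpr1 (chr17:17876471-17883940, minus strand) and Fpr2 (chr17:17887824-17893952, plus strand) are head-to-head neighbours whose starts are 3884 bp apart, and the annotated Fpr2 exons overlap Fpr3, which had at most 2 reads in any library. Ccr1 (chr9:123962124-123968692, minus strand) and Ccr2 (chr9:124101950-124113557, plus strand) belong to the CC receptor cluster with Ccr3, whose members include close paralogs between which short reads can be ambiguous. Cx3cr1 (chr9:119901616-120069879, minus strand) starts 3.90 Mb from Ccr1, and Ccrl2 (chr9:111054486-111057519, minus strand) starts 12.9 Mb from it, near Ltf. C5ar1 lies at chr7:16246743-16259540 and C3ar1 at chr6:122847138-122856161, both on the minus strand, and Ptafr at chr4:132564067-132582683 on the plus strand.

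The upstream sequences of 4 receptors are shown because Fpr1, Fpr2 and Ccrl2 were the receptors that rose with PM and were lower again with OI, while Ccr1 rose further with OI. Each is the 240 bases that end 10 bases before the RefSeq start site on GRCm38.p6, written 5′ to 3′ along the gene. Capitals mark matches, on either strand, to the NF-kB motif (GGGA and CC with any 4 bases between them) or the antioxidant response element (ARE) motif TGACNNNGC. The 2 motifs did not overlap in these windows. The windows are chr17:17883950-17884189 (Fpr1, minus strand), chr17:17887574-17887813 (Fpr2, plus strand), chr9:111057529-111057768 (Ccrl2, minus strand, the most upstream of its start sites) and chr9:123968703-123968942 (Ccr1, minus strand).
Fpr1: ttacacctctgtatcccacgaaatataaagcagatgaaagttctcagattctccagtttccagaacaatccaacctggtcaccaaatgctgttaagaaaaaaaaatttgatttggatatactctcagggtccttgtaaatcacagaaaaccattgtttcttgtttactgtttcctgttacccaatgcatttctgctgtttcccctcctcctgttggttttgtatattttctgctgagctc
Fpr2: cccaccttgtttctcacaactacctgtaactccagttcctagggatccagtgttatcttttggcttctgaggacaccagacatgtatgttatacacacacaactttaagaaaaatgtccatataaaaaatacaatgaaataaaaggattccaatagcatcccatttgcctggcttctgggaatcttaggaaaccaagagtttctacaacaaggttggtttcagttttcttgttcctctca
Ccrl2: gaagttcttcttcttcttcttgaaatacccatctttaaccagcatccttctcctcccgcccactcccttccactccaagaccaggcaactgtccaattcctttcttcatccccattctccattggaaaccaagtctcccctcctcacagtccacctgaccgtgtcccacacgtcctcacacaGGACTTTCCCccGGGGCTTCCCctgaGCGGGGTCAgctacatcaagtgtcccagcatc
Ccr1: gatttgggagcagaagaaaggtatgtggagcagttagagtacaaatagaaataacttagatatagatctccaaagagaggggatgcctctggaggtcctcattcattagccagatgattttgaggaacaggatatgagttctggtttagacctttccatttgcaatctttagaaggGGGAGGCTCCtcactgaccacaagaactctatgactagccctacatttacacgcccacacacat

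The window of Ccrl2 held 2 matches to the NF-kB motif and 1 to the ARE motif, that of Ccr1 held 1 match to the NF-kB motif, and those of Fpr1 and Fpr2 held neither. Of the 32851 RefSeq windows of this length, 16.8% held the NF-kB motif and 9.67% held TGACNNNGC, so a match to either is common. The 9 receptors were also searched on both strands for the AP-1 motif TGANTCA (6.58% of all windows), the PU.1 motif AGGAAGT (7.32%) and the interferon-stimulated response element, or ISRE (GAAA and GAAA with any 2 bases between them, 2.87%). TGANTCA matched in C3ar1, AGGAAGT matched in C5ar1 and the ISRE matched in none of the 9. No match in such a window says only that these letters are not there.

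In vehicle-treated cells the receptors fell into 2 tiers of abundance. Per transcript length, WT vehicle cells held 340 ± 0.823 RPKM of C3ar1 mRNA and 256 ± 7.66 of C5ar1 (mean ± SD, n = 2), followed by Ptafr at 79.4 ± 2.72 and Ccr1 at 58.6 ± 2.78. The other 5 receptors were far lower, with Cx3cr1 at 5.18 ± 0.714, Ccrl2 at 4.61 ± 0.111, Ccr2 at 1.60 ± 0.00604, Fpr2 at 0.640 ± 0.206 and Fpr1 at 0.402 ± 0.0836 RPKM. The ranges of Cx3cr1 and Ccrl2 overlapped, and those of Fpr1 and Fpr2 overlapped within 2 SD, so the order within each pair was not resolved. Every other step was larger than the spread. The complement receptors C3ar1 and C5ar1 together made up most of the summed receptor mRNA, 45.6% and 34.3%.

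The summed level of the 9 receptors was 747 RPKM in WT vehicle, 728 in WT PM and 475 in WT OI+PM, and 746, 725 and 469 in the corresponding Acod1-/- groups. Its composition changed more than its sum did between vehicle and PM. The formyl peptide receptors went from 0.0539% (Fpr1) and 0.0857% (Fpr2) of the WT sum to 3.37% and 2.20% with PM. C3ar1 had the largest share in WT cells with vehicle and with PM. With OI and PM the share of Ccr1 reached 30.2% in WT cells, beside 30.0% for C5ar1 and 27.1% for C3ar1. Their levels there (mean ± SD) were 143 ± 15.5, 143 ± 11.9 and 129 ± 9.08 RPKM, which overlapped, so their order was not resolved. In Acod1-/- cells with OI and PM the shares were 30.2% for C3ar1, 29.7% for C5ar1 and 24.1% for Ccr1. The mean levels of C3ar1 and C5ar1 there were 142 and 139 RPKM. Their libraries overlapped, so the order of C3ar1 and C5ar1 was not resolved in these cells either. These sums are a description and were not tested.

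**Figure D1:**
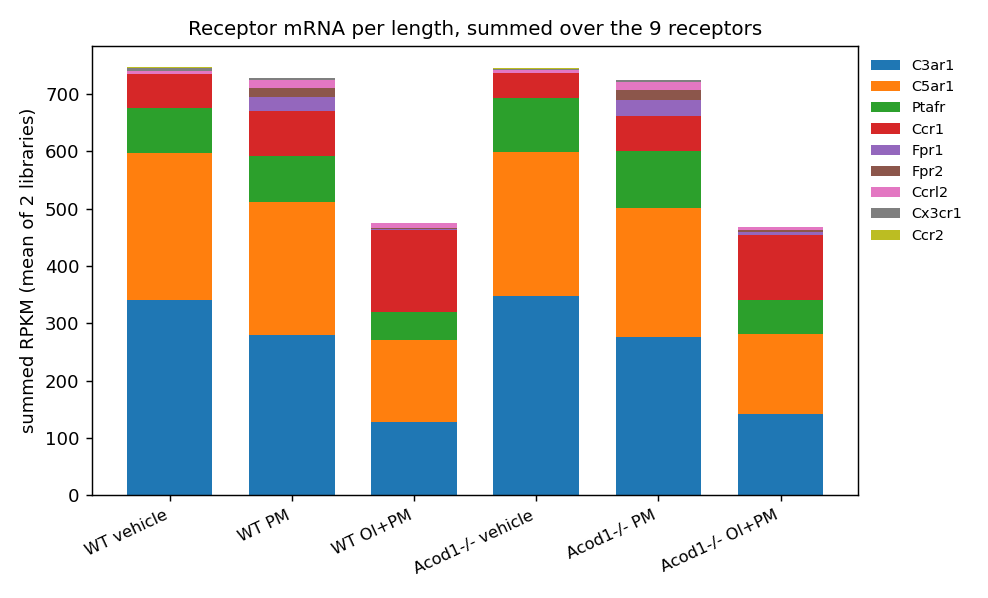
Stacked bars of mean RPKM (2 libraries per group, linear axis from 0, no error shown) of the 9 receptors in each of the 6 groups. C3ar1 and C5ar1 form most of each bar in vehicle and PM, Ccr1 widens in OI+PM, and the total falls from 747 to 475 RPKM between WT vehicle and WT OI+PM.

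PM raised a distinct set of these receptors in WT cells. The formyl peptide receptors and Ccrl2 were called higher, where a call needed an adjusted p of 0.05 or less from edgeR's quasi-likelihood test and at least a 2-fold change. These were 3 of the 9 receptors, and none was called lower. Over all tested genes 4.15% were called in this comparison, 3.02% higher and 1.13% lower.

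Fpr1 stood at 0.454 and 0.611 normalized CPM in the WT vehicle libraries (17 and 24 reads) and at 32.5 and 32.5 in the WT PM libraries (1136 and 1129 reads). Every PM library lay far above every vehicle library, and the fitted log2 difference was 5.92 ± 0.17 (SE, adjusted p = 3.96e-08), which placed Fpr1 at rank 7 of 11228 genes from the highest. Fpr2 stood at 0.641 and 1.02 with vehicle and at 21.9 and 19.6 with PM. Its log2 difference was 4.63 ± 0.24 (adjusted p = 8.84e-07), rank 15 from the highest. Both receptors were at the edge of detection without PM and moderately abundant with it.

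Ccrl2 started higher and rose less. It stood at 11.8 and 12.2 normalized CPM with vehicle and at 33.3 and 33.3 with PM, a log2 difference of 1.47 ± 0.11 (adjusted p = 1.39e-05). Ccr1 passed the p threshold without reaching 2-fold, from 160 and 171 normalized CPM to 219 and 229 (log2 difference 0.43 ± 0.08, adjusted p = 0.0034). The vehicle and PM libraries of both genes did not overlap.

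Ccr2 and Cx3cr1, whose proteins mark monocyte subsets, went the other way. Ccr2, the receptor through which monocytes leave the marrow, stood at 10.9 and 10.8 normalized CPM with vehicle and at 5.94 and 5.07 with PM, a log2 difference of -0.98 ± 0.13 (adjusted p = 0.000489), just short of 2-fold and past it with total count scaling (-1.07). Cx3cr1 stood at 21.1 and 25.6 with vehicle and at 13.6 and 16.1 with PM (log2 difference -0.65 ± 0.14, adjusted p = 0.00835). C3ar1 fell slightly, by 0.28 ± 0.07 on the log2 scale (adjusted p = 0.0198). The adjusted p of Cx3cr1 was 0.0863 without WT vehicle replicate 2, and that of C3ar1 was 0.0987 to 0.12 without either WT vehicle library or WT PM replicate 2. By the adjusted p alone, without the fold threshold, 4 receptors were higher and 3 lower, against 12.6% and 12.2% of all tested genes (24.8% in either direction).

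C5ar1 and Ptafr did not pass the test. C5ar1 had 645 and 672 normalized CPM with vehicle and 604 and 588 with PM, a log2 difference of -0.14 whose 95% interval ran from -0.29 to 0.005 (adjusted p = 0.133). Ptafr libraries overlapped, with 296 and 282 against 303 and 283 normalized CPM (log2 difference 0.02, 95% interval -0.14 to 0.18, adjusted p = 0.854), and the sign of this value depended on the scaling. Both intervals hold small differences only.

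The response to PM had nearly the same members in Acod1-/- cells. Fpr1, Fpr2 and Ccrl2 were called higher and Ccr2 lower, 4 of 9, where 4.5% of all tested genes were called, 3.19% higher and 1.31% lower. Fpr1 went from 0.820 and 0.639 to 39.96 and 34.3 normalized CPM (log2 difference 5.66 ± 0.16, adjusted p = 4.25e-08). Fpr2 went from 0.929 and 0.639 to 27.3 and 20.5 (4.92 ± 0.24, adjusted p = 5.18e-07).

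Ccrl2 went from 10.8 and 12.5 to 38.8 and 34.7 normalized CPM, a log2 difference of 1.66 ± 0.11 (adjusted p = 5.09e-06). Ccr2 went from 6.21 and 7.80 to 3.06 and 3.19, a log2 difference of -1.16 ± 0.14 (adjusted p = 0.000279). Ccr2 was thus called in Acod1-/- cells and not in WT cells on differences that lay on either side of 2-fold, and each crossed it without 1 library (-1.10 in WT cells without WT PM replicate 1, and -0.99 in Acod1-/- cells without Acod1-/- vehicle replicate 2). Ccr1 rose by 0.49 ± 0.08 and C3ar1 fell by 0.33 ± 0.07 on the log2 scale (adjusted p = 0.00147 and 0.00851), the latter with an adjusted p of 0.0835 without Acod1-/- vehicle replicate 2 and 0.0729 without Acod1-/- PM replicate 2. Cx3cr1, at 12.2 and 11.2 with vehicle and 11.6 and 10.7 with PM, overlapped between the groups, and its log2 difference of -0.07 had a 95% interval of -0.39 to 0.26 (adjusted p = 0.763).

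Fpr1 and Fpr2 are also expressed by neutrophils, so the neutrophil markers are given beside them. The summed level of the 10 neutrophil markers was 6.95 to 6.97 normalized CPM in WT vehicle, 13.3 to 19.7 in WT PM and 29.8 to 61.4 in WT OI+PM, and 7.36 to 7.49, 20.1 to 20.3 and 34.5 to 34.6 in the Acod1-/- groups. S100a8 made up most of this in the PM and OI+PM groups, while Ly6g had 1 read over all 12 libraries. S100a8, and with it the sum, was highest with OI and PM, where the formyl peptide receptors were lower than with PM alone. The other markers of the list did not share 1 course. S100a9 and Ltf were highest with PM in both genotypes, as Fpr1 and Fpr2 were. S100a9 stood at 0.935 and 1.09, 1.26 and 2.16, and 0.419 and 0.474 normalized CPM in WT vehicle, PM and OI+PM, and at 1.34 and 1.31, 3.23 and 3.31, and 1.02 and 1.05 in the Acod1-/- groups. Ltf stood at 0.668 and 0.484 normalized CPM in WT vehicle, close to the 0.714 and 0.721 of WT PM, and at 0.0299 and 0.0338 in WT OI+PM. In Acod1-/- vehicle, PM and OI+PM it was at 0.765 and 0.777, 1.12 and 1.78, and 0.541 and 0.277. Ngp was at 0.454 and 1.12, 0.914 and 1.07, and 0.180 and 0.0338 in the WT groups, so that vehicle and PM overlapped, and at 1.09 and 1.08, 1.65 and 2.56, and 0.72 and 0.40 in the Acod1-/- groups, highest with PM and without overlap. Cxcr2, at 0.294 and 0.509, 0.143 and 0.346, and 0.299 and 0.372 in the WT groups, did not peak with PM, and in Acod1-/- cells it stood at 0.176 and 0.230 with PM and at 0.451 and 0.308 with OI and PM. Mpo, Elane, Camp and Retnlg had at most 8 reads in any library. The part of any neutrophils in the Fpr1 and Fpr2 results was not tested. Whether fewer cells of a type or less RNA per cell lies behind a level cannot be told apart in bulk libraries such as these.

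**Figure D2:**
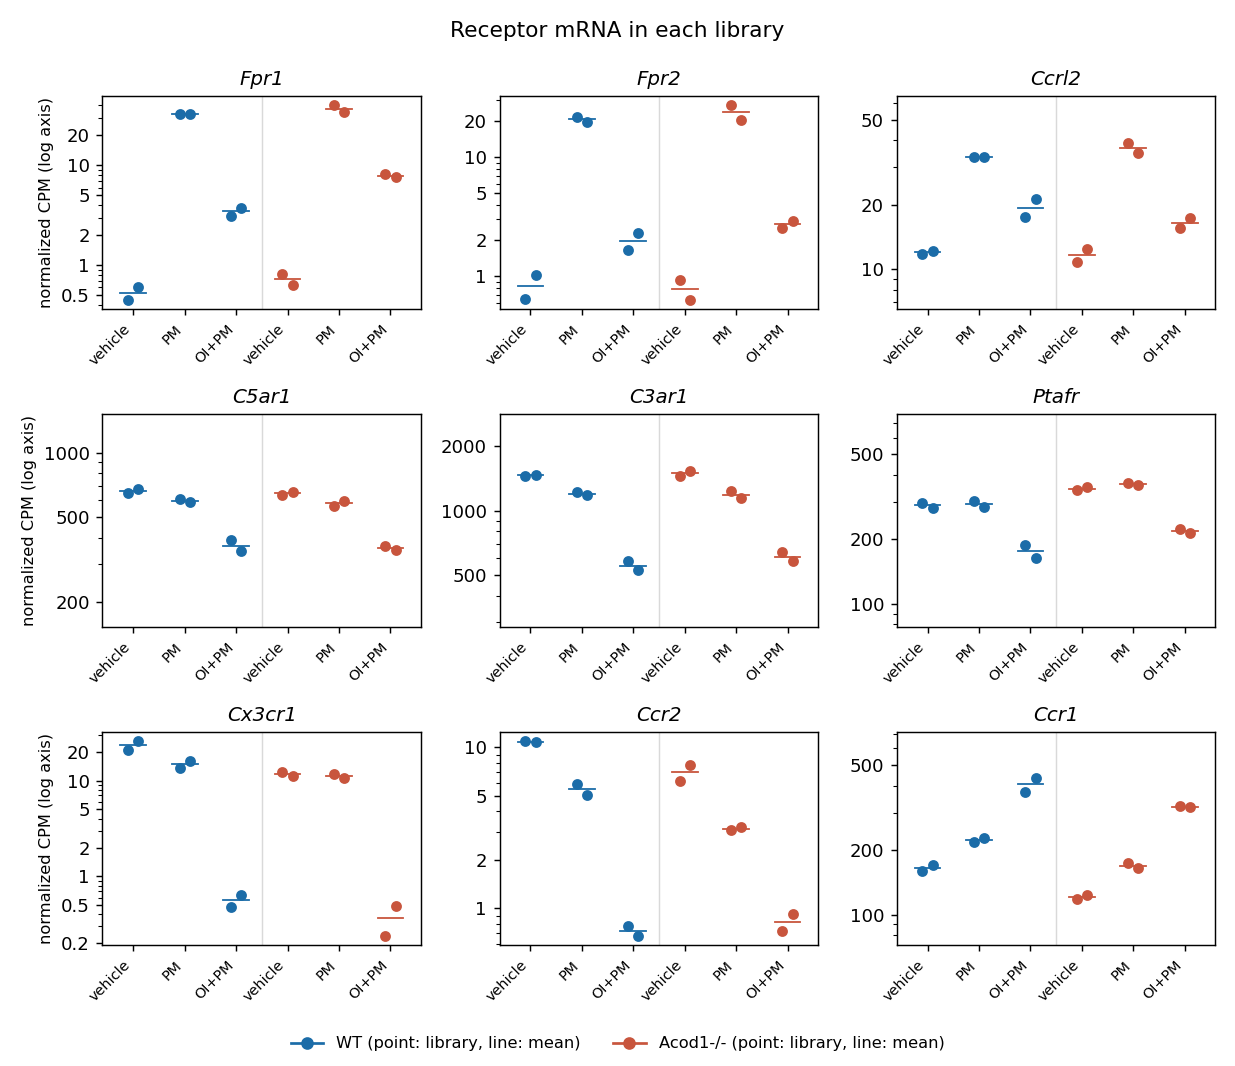
Normalized CPM of each receptor on a log axis, with 1 point per library and a line at the mean of the 2 libraries of each group. The panels of Fpr1, Fpr2 and Ccrl2 peak in PM, those of C5ar1, C3ar1, Ptafr, Cx3cr1 and Ccr2 are lowest in OI+PM, and that of Ccr1 climbs from vehicle to PM to OI+PM in both genotypes.

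OI before PM lowered most of the receptors. In WT cells all 9 passed the p threshold against PM alone, 8 lower and 1 higher, where 22.6% of all tested genes were lower and 21.3% higher by the adjusted p (43.9% in all). With the 2-fold threshold added, 5 receptors were lower and none higher, against 8.49% and 2.3% of all tested genes (10.8% in either direction). The median log2 difference of the 9 was -1.12, beside 0.02 over all tested genes. Ighm, a B cell marker, moved in the same comparison, from 8.86 and 10.4 normalized CPM in WT PM to 134 and 188 in WT OI+PM, and from 11.8 and 10.9 to 91.7 and 107 in Acod1-/- cells. Its part in the receptor results was not tested.

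Cx3cr1 fell the furthest. Against the 13.6 and 16.1 normalized CPM of the PM libraries (477 and 558 reads), the OI+PM libraries held 0.479 and 0.643 (16 and 19 reads). The log2 difference was -4.73 ± 0.22 (adjusted p = 1.01e-07), rank 46 from the lowest of 11228 genes. Ccr2 went from 5.94 and 5.07 to 0.779 and 0.677 normalized CPM (-2.91 ± 0.19, adjusted p = 1.12e-06). Both were left with few reads, 16 to 26 per library, and their WT levels with OI and PM lay below those of vehicle as well.

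The formyl peptide receptors lost most, and not all, of their rise. Fpr1 stood at 3.14 and 3.79 normalized CPM with OI and PM against 32.5 and 32.5 with PM (log2 difference -3.23 ± 0.13, adjusted p = 3.48e-08). Fpr2 stood at 1.68 and 2.30 against 21.9 and 19.6 (-3.39 ± 0.21, adjusted p = 8.32e-07). Both OI+PM libraries of each gene lay below every PM library and above every vehicle library, and against vehicle the log2 differences were 2.69 ± 0.20 for Fpr1 and 1.24 ± 0.31 for Fpr2 (adjusted p = 2.15e-06 and 0.00547).

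The abundant complement and lipid receptors fell by smaller factors, but from high levels. C3ar1 went from 1229 and 1179 normalized CPM with PM to 581 and 526 with OI and PM (log2 difference -1.12 ± 0.07, adjusted p = 1.11e-06). C5ar1 went from 604 and 588 to 388 and 345 (-0.70 ± 0.07, adjusted p = 1.88e-05), and Ptafr from 303 and 283 to 188 and 164 (-0.74 ± 0.07, adjusted p = 2.57e-05). Ccrl2 went from 33.3 and 33.3 to 17.5 and 21.2 (-0.79 ± 0.11, adjusted p = 0.000288), which left it above its vehicle level. For these 4 genes no OI+PM library reached the level of a PM library.

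Ccr1 alone rose. This receptor of Ccl3, Ccl5 and related chemokines stood at 219 and 229 normalized CPM with PM and at 376 and 437 with OI and PM, a log2 difference of 0.86 ± 0.08 (adjusted p = 1.29e-05). Against vehicle, at 160 and 171, the difference was 1.29 ± 0.08 (adjusted p = 4.81e-07). Vehicle, PM and OI+PM libraries were each separate from the next, and Ccr1 was the only receptor of the 9 whose level rose at both steps by the test.

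In Acod1-/- cells OI before PM likewise left 8 receptors lower and Ccr1 higher by the adjusted p (20.6% and 13.9% of all tested genes). Of them 5 were called lower and none higher, against 7.98% and 1.85% (9.83% in either direction). Cx3cr1 went from 11.6 and 10.7 to 0.240 and 0.493 normalized CPM, the latter 8 and 16 reads (log2 difference -4.92 ± 0.24, adjusted p = 1.42e-07). Fpr2 went from 27.3 and 20.5 to 2.56 and 2.93 (-3.12 ± 0.20, adjusted p = 1.08e-06), and Fpr1 from 39.96 and 34.3 to 8.18 and 7.67 (-2.23 ± 0.12, adjusted p = 2.34e-07).

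Ccr2 went from 3.06 and 3.19 to 0.721 and 0.924 normalized CPM (log2 difference -1.92 ± 0.20, adjusted p = 3.54e-05) and Ccrl2 from 38.8 and 34.7 to 15.5 and 17.3 (-1.16 ± 0.11, adjusted p = 2.06e-05). C3ar1, from 1231 and 1146 to 640 and 579, was just short of 2-fold at -0.96 ± 0.07 (adjusted p = 3.51e-06). C5ar1 and Ptafr fell by 0.70 and 0.73 on the log2 scale, and Ccr1 rose from 174 and 165 to 321 and 318 (0.92 ± 0.08, adjusted p = 8.48e-06). The 5 called receptors therefore included Ccrl2 and not C3ar1, whereas those of WT cells included C3ar1 and not Ccrl2. C3ar1 in Acod1-/- cells passed 2-fold without Acod1-/- PM replicate 2 (-1.01), without Acod1-/- OI+PM replicate 1 (-1.04) and with total count scaling (-1.03).

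Against vehicle, OI with PM gave 3 receptors called higher and 3 lower in each genotype. Over all tested genes 16.1% were called in WT cells (5.38% higher, 10.7% lower) and 13.1% in Acod1-/- cells (3.88% higher, 9.25% lower). By the adjusted p alone 4 receptors were higher and 5 lower in each genotype, where 33.6% and 31.9% of all tested genes passed in WT cells (65.5% in all) and 22.7% and 26.7% in Acod1-/- cells (49.4% in all). Fpr1, Fpr2 and Ccr1 were the higher ones at 2-fold, with log2 differences in Acod1-/- cells of 3.43 ± 0.17, 1.80 ± 0.29 and 1.40 ± 0.08. In WT cells the 1.24 of Fpr2 was no longer called with the length correction, at 0.82, or without WT vehicle replicate 1, at 0.95. C5ar1, at -0.85 in WT cells, passed 2-fold with total count scaling and with the length correction, at as low as -1.07, and in Acod1-/- cells, at -0.85, it did so with total count scaling, at -1.0004. Ccrl2, 0.50 above vehicle in Acod1-/- cells (adjusted p = 0.00566), had an adjusted p of 0.0584 without Acod1-/- vehicle replicate 1 and 0.0525 without Acod1-/- OI+PM replicate 2. The lower ones were C3ar1, Ccr2 and Cx3cr1, at -1.40 ± 0.07, -3.89 ± 0.18 and -5.38 ± 0.22 in WT cells and -1.30 ± 0.07, -3.09 ± 0.18 and -4.99 ± 0.24 in Acod1-/- cells. The comparisons with PM, with OI and with both share libraries within a genotype, so their values are given side by side and are not independent.

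**Figure D3:**
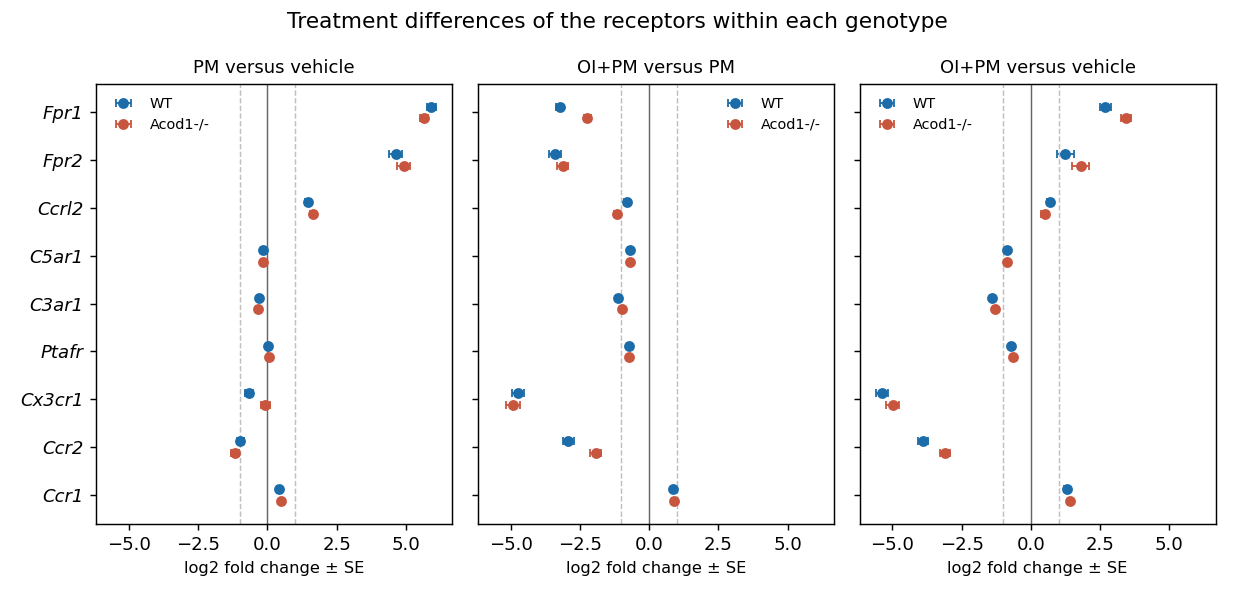
Log2 fold change (points) with its SE (bars) of each receptor for 3 comparisons in each genotype, with dashed lines at 2-fold. Fpr1 and Fpr2 lie far to the right for PM versus vehicle and far to the left for OI+PM versus PM, Cx3cr1 lies furthest left wherever OI is in the comparison, and Ccr1 lies to the right of 0 in all 3 panels.

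Ccr2 is also one of the 5 monocyte markers checked here. That list summed to 14.5 to 14.8 normalized CPM in WT vehicle, 8.76 to 11.3 in WT PM and 4.57 to 5.78 in WT OI+PM, and most of the decrease was Ccr2 itself. Vcan, another of the 5, was at 0.481 and 0.840 in WT vehicle, 2.69 and 1.56 in WT PM and 3.23 and 2.88 in WT OI+PM, and so did not fall with Ccr2. Ly6c2 and Plac8 stayed at 0.173 normalized CPM or less in every library. The part of any remaining monocytes in the Ccr2 and Cx3cr1 results was not tested.

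Fewer receptors passed the test between genotypes than between treatments. With vehicle, 1 receptor was called, Cx3cr1, lower in Acod1-/- than in WT cells, where 0.481% of all tested genes were called (0.232% lower). Cx3cr1 stood at 12.2 and 11.2 normalized CPM in Acod1-/- vehicle against 21.1 and 25.6 in WT vehicle. The log2 difference of -1.0003 ± 0.14 (adjusted p = 0.00618) lay at the 2-fold threshold itself and was -0.99 with a replicate block, and the call was lost there and on leaving out WT vehicle replicate 2 or either Acod1-/- vehicle library, with values of -0.85 to -1.13 as each library was left out. By the adjusted p alone Ccr1 and Ccr2 were lower as well (3 of 9, where 0.935% of all tested genes were lower and 0.891% higher), at -0.46 ± 0.08 and -0.63 ± 0.13 (adjusted p = 0.0171 and 0.0383).

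With PM no receptor was called between genotypes by edgeR or DESeq2, where 0.561% of all tested genes were called by edgeR, and 4 of the 9 receptors and 1577 of all 11228 genes had an unadjusted p under 0.05. Ccr1 and Ccr2 again passed the adjusted p without the fold (of all tested genes 1.3% were lower and 1.1% higher, 2.4% in all). Ccr1 stood at 174 and 165 in Acod1-/- PM against 219 and 229 normalized CPM in WT PM (log2 difference -0.40 ± 0.08, adjusted p = 0.027). Ccr2 stood at 3.06 and 3.19 against 5.94 and 5.07 (-0.82 ± 0.15, adjusted p = 0.0194). Cx3cr1, at -0.41 ± 0.14, did not pass (adjusted p = 0.221), although its libraries did not overlap.

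With OI and PM, Fpr1 was the receptor called, higher in Acod1-/- than in WT cells, where 0.917% of all tested genes were called (0.33% higher). It stood at 8.18 and 7.67 against 3.14 and 3.79 normalized CPM, a log2 difference of 1.20 ± 0.14 (adjusted p = 0.0017). In an edgeR fit of these 4 libraries alone the size was the same, 1.22, and the adjusted p was 0.138 (1.85e-10 to 0.138 over all alternatives), while DESeq2 on the same 4 libraries gave 0.000696. Ptafr was higher (0.32 ± 0.07, adjusted p = 0.032) and Ccr1 lower (-0.35 ± 0.08, adjusted p = 0.0302) by the adjusted p alone, which 2.51% and 4.45% of all tested genes passed in those directions.

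Ccr1 was lower in Acod1-/- than in WT libraries in all 3 treatments, by 0.35 to 0.46 on the log2 scale, and its libraries did not overlap between genotypes in any of them. Its adjusted p passed in each of the 3 fits but rose above 0.05 on leaving out any 1 library with vehicle (0.0816 to 0.218) or with PM (0.0597 to 0.231). With OI and PM it did so on leaving out any library but WT OI+PM replicate 1 (0.0963 to 0.175), and in fits of those 4 libraries alone (0.373 with edgeR and 0.424 with DESeq2). Ccr2 was lost likewise without any 1 library with vehicle (0.0697 to 0.415) and, with PM, without any but WT PM replicate 2 (0.0984 to 0.163). Ptafr was 0.26, 0.31 and 0.32 higher with vehicle, PM and OI+PM, again without overlap, with adjusted p-values of 0.155, 0.0612 and 0.032. On which side of 0.05 these fell depended on the fit. With vehicle, the compared groups alone gave 4.68e-07 with edgeR and 9.73e-09 with DESeq2, and with PM, DESeq2 on all libraries gave 0.0148 and the replicate block 0.0439. With OI and PM, the compared groups alone gave 0.386 with edgeR and 0.393 with DESeq2, and leaving out any library but WT OI+PM replicate 1 gave 0.103 to 0.211. C5ar1 overlapped between genotypes in all 3 treatments, with log2 differences of -0.03 to -0.04 and 95% intervals within -0.19 to 0.12. Its sign with PM turned under the length correction, and its sign with OI+PM under total count scaling and the length correction. C3ar1 overlapped likewise, at 0.03, -0.02 and 0.14. With OI and PM, C3ar1 passed the adjusted p (0.0373) without WT OI+PM replicate 1. Ccrl2 did not pass in any treatment. Its libraries did not overlap with PM, where it was higher in Acod1-/- cells (log2 difference 0.14), or with OI and PM, where it was lower (-0.23). The difference with OI and PM was -0.37 without WT OI+PM replicate 1. Fpr2 did not pass in any treatment.

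**Figure D4:**
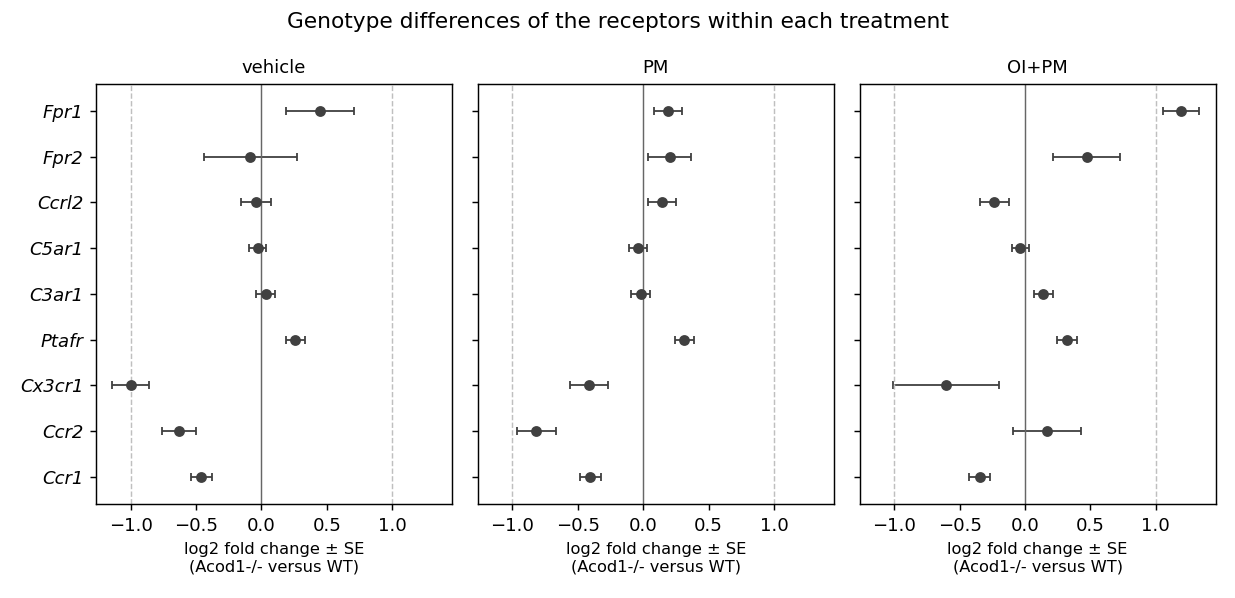
Log2 fold change (points) with its SE (bars) of Acod1-/- versus WT for each receptor within vehicle, PM and OI+PM, with dashed lines at 2-fold. C5ar1 and C3ar1 lie near 0 throughout, Ccr1 lies left of 0 and Ptafr right of 0 in all 3 panels, Cx3cr1 with vehicle lies on the left dashed line, and Fpr1 with OI+PM lies past the right one.

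Whether the treatments acted differently in the 2 genotypes was tested directly as an interaction. For the effect of PM, edgeR called none of the 9 receptors and 0% of the 11228 genes, DESeq2 called none of the 9, and 1 receptor and 273 of the 11228 genes had an unadjusted p under 0.05. The receptor was Cx3cr1, whose fall with PM in WT cells was 0.59 ± 0.20 log2 units larger than in Acod1-/- cells (unadjusted p = 0.0161, adjusted p = 1). For Fpr1 and Fpr2 the differences between genotypes in the PM effect were -0.26 (95% interval -0.88 to 0.37) and 0.29 (-0.59 to 1.17), small beside their rises.

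For the effect of OI before PM, edgeR again called none of the 9 and 0% of all genes, and 3 receptors and 717 of the 11228 genes had an unadjusted p under 0.05. Fpr1 fell by 3.23 in WT and 2.23 in Acod1-/- cells, an interaction of 1.005 ± 0.17 (unadjusted p = 0.000195, adjusted p = 0.146). DESeq2 on all libraries called it, with an adjusted p of 0.00159, and over all alternatives tried the adjusted p ran from 0.00159 to 0.712. Ccr2 had an interaction of 0.99 ± 0.30 (unadjusted p = 0.00863, adjusted p = 0.683) on 20 to 30 reads per OI+PM library, and Ccrl2 one of -0.38 ± 0.16 (unadjusted p = 0.0379, adjusted p = 0.759). C5ar1, Ptafr and Ccr1 had interactions of 0.00, 0.01 and 0.06, with 95% intervals within -0.22 to 0.30.

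Each receptor's profile over the 12 libraries was set beside those of the other genes, as a description, since the libraries share 6 treatment groups. Fpr1 and Fpr2 had a Pearson's r of 0.97 with each other, and Ccrl2 had 0.97 with Fpr2 and 0.94 with Fpr1. The genes most like Fpr1 were H2-M2 (r = 0.989) and F7, coagulation factor VII (0.987), and those most like Fpr2 were C3, the precursor of the C3ar1 ligand (0.991), and Clec4e, a pattern recognition receptor (0.990). Ccrl2 was most like Il1b, which encodes interleukin-1 beta (0.994), and Rasa4 (0.989).

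The falling receptors had other closest genes. C5ar1 was most like Brca1 and Mki67 (both r = 0.997), C3ar1 most like Snx2 and Kif20b (both 0.998), and Cx3cr1 most like Chek1, a checkpoint kinase (0.995), and Arhgef3 (0.994). Ptafr was most like Xdh, which encodes xanthine dehydrogenase (0.991), and Ms4a6c (0.988). Ccr2 was most like Lbr and Arap3 (both 0.990), and Ccr1, with the opposite course to these, was most like Mpp6 (0.996) and Tnfrsf26 (0.994). C5ar1 and C3ar1 had r = 0.988 with each other, Ccr2 and Cx3cr1 0.954, and Ccr1 and C3ar1 -0.938.

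Other chemoattractant receptors were measured from a list of 36 genes, of which 16 were abundant enough to test. With PM, 1 of the 16 was called higher in WT cells and none lower, and 2 were higher in Acod1-/- cells, where 3.02% and 3.19% of all tested genes were called higher. The gene called in both was Cmklr1, the signalling receptor of chemerin, which Ccrl2 presents. It stood at 4.49 and 4.17 normalized CPM in WT vehicle and at 10.4 and 9.22 in WT PM (log2 difference 1.18 ± 0.14, adjusted p = 0.000196), and rose by 1.31 ± 0.13 in Acod1-/- cells (adjusted p = 6.26e-05).

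With OI before PM, 10 of the 16 other receptors were called lower in WT cells and 8 in Acod1-/- cells, with none higher and medians of -1.25 and -1.04, beside 8.49% and 7.98% of all tested genes called lower. The largest fall was that of P2ry12, a receptor of ADP, from 6.31 and 5.04 normalized CPM in WT PM to 0.719 and 0.406 in WT OI+PM (-3.31 ± 0.22, adjusted p = 1.29e-06). Ccr3, a cluster neighbour of Ccr1 and Ccr2, fell by 2.17 ± 0.09 on the log2 scale in WT cells (adjusted p = 4.9e-08), opposite in direction to Ccr1 in the same libraries. Of the 5 tested neighbours of the receptor clusters, which include Ccr3, 3 were called lower with OI before PM in each genotype and none higher, against the same 8.49% and 7.98%, and the 16 and the 5 share members such as Ccr3. Between genotypes with OI and PM, Ccr3 was called higher in Acod1-/- cells (14.5 and 14.3 against 6.02 and 6.63 normalized CPM, log2 difference 1.19 ± 0.09, adjusted p = 0.000228). C5ar2, the second C5a receptor, named here as the paralog of C5ar1 after its values were seen, started low, at 14.5 and 14.4 in WT vehicle, and stood at 7.25 and 5.41 in WT OI+PM.

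Of 30 ligand and ligand-handling genes, 22 were tested, and 5 were called higher and none lower with PM in each genotype, where 3.02% of all tested genes were called higher in WT cells and 3.19% in Acod1-/- cells. C3 went from 3.55 and 3.54 normalized CPM in WT vehicle to 85.6 and 71.1 in WT PM (log2 difference 4.46 ± 0.11, adjusted p = 3.96e-08), and Saa3, whose product belongs to a family that binds Fpr2, from 2.46 and 2.37 to 42.9 and 45.1 (4.19 ± 0.13, adjusted p = 6.21e-08). Ccl5, a ligand of Ccr1, went from 1.90 and 1.83 to 24.2 and 26.6 (3.77 ± 0.21, adjusted p = 1.59e-06).

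With OI before PM, 2 of the 22 were called higher and 11 lower in each genotype, beside 2.3% higher and 8.49% lower over all tested genes in WT cells and 1.85% and 7.98% in Acod1-/- cells. The Ccr2 ligands Ccl2 and Ccl7 fell together with Ccr2, with log2 differences of -4.38 ± 0.19 and -5.09 ± 0.23 in WT cells (adjusted p = 5.34e-08 and 7.48e-08). Ccl2 stood at 107 and 137 normalized CPM in WT PM and at 4.64 and 7.17 in WT OI+PM. Between genotypes with PM, Saa3 had the largest change of the ligands named, at 139 and 132 normalized CPM in Acod1-/- PM (higher by 1.62 ± 0.10 on the log2 scale, adjusted p = 4.92e-05). Ccl2 and Ccl7 were lower in Acod1-/- than in WT cells, with log2 differences of -1.01 ± 0.16 for Ccl2 and -1.18 ± 0.17 for Ccl7 (adjusted p = 0.00922 and 0.00548), beside the -0.82 of Ccr2 itself. Pla2g7, which breaks down platelet-activating factor, the ligand of Ptafr, moved the other way, from 173 and 155 in WT vehicle to 557 and 559 in WT PM and to 1099 and 1241 in WT OI+PM (OI+PM versus vehicle, 2.83 ± 0.09, adjusted p = 4.26e-09).

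The genes of receptor signalling and desensitization formed a list of 44 symbols, of which 42 were found in the counts and tested. Adrbk1 and Adrbk2 on this list are older symbols of Grk2 and Grk3, which are on it too. With PM, 1 was called higher and 1 lower in WT cells, with a median of 0.00, where 4.15% of all tested genes were called. With OI before PM, 1 was higher and 6 were lower in WT cells (median -0.21, beside 10.8% of all tested genes called), and 1 and 5 in Acod1-/- cells (median -0.24, beside 9.83%). Fgr, a Src-family kinase of phagocytes, stood at 3.61 and 4.45 normalized CPM in WT vehicle, 15.4 and 13.5 in WT PM and 3.47 and 3.76 in WT OI+PM (log2 differences 1.84 ± 0.16 and -2.001 ± 0.16). Of the kinases that desensitize such receptors, Grk3 fell and Grk5 rose with OI before PM in WT cells, with log2 differences of -1.88 ± 0.17 and 1.06 ± 0.09 (adjusted p = 1.42e-05 and 7.63e-06).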

How the data were processed

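RNA was sequenced from 12 libraries as 50-base single reads. Per the labels and the study's methods, the authors checked reads with FastQC 0.11.5, mapped them to GRCm38 with STAR 2.5.3a, checked alignments with Picard 2.9.0 and counted reads per gene with featureCounts. The deposited values are unnormalized counts per Ensembl gene. The annotation release, strand setting and handling of ambiguous reads are not given in the sources used here. Symbols, positions and exonic lengths came from GENCODE M21.

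The receptors and gene lists were chosen with earlier results of these data known. Genes above 1.5 CPM in at least 2 libraries were fitted across all 12 libraries with edgeR 4.0.16 (TMM scaling, quasi-likelihood test, R 4.3.3), with p-values adjusted over all 11228 genes. A call needed an adjusted p of at most 0.05 and a 2-fold change. Normalized CPM uses TMM library sizes, and RPKM divides it by exonic length. Named list genes are the 3 called genes with the largest change that average at least 5 CPM. Standard errors are the log2 change divided by the root of F, and 95% intervals use the t distribution with the test's 9.77 degrees of freedom. Alternatives were DESeq2 1.42.0, other scalings and filters, a correction for length, blocking on the replicate number, and omitting libraries 1 at a time. The edgeR and DESeq2 fits were tried on simulated counts for PM versus vehicle in WT cells only. That simulation held no length-dependent difference between replicates, and the genotype and interaction comparisons were not simulated.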

Additional observations from a re-analysis of the deposited data

How the results depend on the processing

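Counts of receptors called kept within 1.5 times of those reported under most alternatives. Without the fold threshold they were 7 for PM in WT cells, 9 for OI before PM in each genotype, and 3, 2 and 3 between genotypes with vehicle, PM and OI+PM. When CPM above 1.5 was required in all 12 libraries, which only 5 of the receptors met, they were 1 for PM and 1 for OI before PM in each genotype, 2 for OI+PM versus vehicle in each, and 0 between genotypes with vehicle and with OI+PM, since the receptors that come or go with treatment were no longer tested. Between genotypes with OI+PM the count was 0 with edgeR on the compared groups alone. For the interaction with OI it was 1 (Fpr1) with DESeq2 on all libraries, with DESeq2 on the compared groups alone, with the length correction and with that correction plus the replicate block; the cause was not tested.

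The labels number replicates without stating a pairing. Same-numbered libraries correlated at -0.41 to 0.73 across pairs of groups. With a replicate block, alone or with the length correction, the count between genotypes with vehicle was 0 in place of 1 (Cx3cr1 at -0.99), and no other count of called receptors changed by the block alone. Without the fold threshold, Ptafr between genotypes with PM also passed under the block (adjusted p = 0.0439). As each library was left out, the count between genotypes with vehicle ran from 0 to 1.

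Values near 0 changed sign. Ptafr with PM became -0.0725 (total counts), -0.0440 (length correction) and -0.0454 (length correction with block) in WT cells and -0.00578 in Acod1-/- cells (total counts). C5ar1 between genotypes became 0.00294 and 0.00697 with PM (length correction, without and with block) and 0.0338, 0.0719 and 0.0757 with OI+PM (total counts, and both length corrections). As each library was left out, Ptafr with PM in WT cells ran from -0.0332 to 0.0668. Between genotypes with vehicle, Fpr2 ran from -0.382 to 0.290, C5ar1 from -0.0596 to 0.00143, C3ar1 from -0.0142 to 0.0752 and Ccrl2 from -0.147 to 0.0564. With PM, Fpr2 ran from -0.0166 to 0.394 and C3ar1 from -0.0710 to 0.0327, and with OI+PM, C5ar1 ran from -0.118 to 0.0528 and Ccr2 from -0.0173 to 0.338. None of these reached an adjusted p of 0.05 in the fits reported above.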
